A study of Arabidopsis thaliana with 12 samples.

Results

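Complex I, the NADH dehydrogenase of the mitochondrial inner membrane, passes electrons from NADH into the respiratory chain and pumps protons as it does so. In plants most of its subunits are encoded in the nucleus and imported, while a smaller group of nad genes stayed in the mitochondrial genome. The hydrophobic nad1, nad4, nad4L, nad5 and nad6 products sit in the membrane arm, and the nad9 product sits in the arm that reaches into the matrix. Several nad transcripts, those of nad1, nad4 and nad5 among them, carry group II introns that must be spliced out before translation.

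The genes described here are the 6 mitochondrion-encoded complex I genes that have a probe set paired with 1 gene in the platform annotation: nad1, nad4, nad4L, nad5, nad6 and nad9. They are 6 of the 13350 genes that have such a probe set. Where a gene had several, the brightest over all arrays was used. The 6 genes were matched by symbol to the mitochondrial chromosome of the TAIR10.1 gene table, which holds 1 entry for each. In the order of entries, that of nad1 stands between rps7 and cox1, nad4 between ccmFC and mttB, and nad4L between cox3 and atp4. That of nad5 stands between matR and nad7, nad6 between nad2 and cob, and nad9 between rpl16 and atp6. Whether an entry covers all parts of its gene was not checked.

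Arabidopsis thaliana of the Col-0 ecotype was used as whole plants. They were 7 days old and had been grown in shaken half-strength MS liquid medium at 21 °C in continuous light, and RNA was measured on 12 arrays, 3 in each of 4 groups. Mock plants received DMSO only. The L-AOPP group received 50 µM L-AOPP, which the submitters used to block auxin synthesis, for 3 h. The remaining groups received the same L-AOPP treatment and, 1 h into it, either 1 µM of the auxin IAA or its precursor IPyA. The IPyA dose is given as 100 µM in one place and as 0.1 µM in another, and the labels do not settle it. All plants carry the same genotype, no group received IAA or IPyA without L-AOPP, and the labels do not say whether replicate arrays had separate cultures behind them. The p-values therefore reflect spread between arrays that may be technical replicates, and having few arrays limits the precision. In whole-plant RNA, fewer mitochondria or cells with many of them and less transcript per mitochondrion cannot be told apart. Of 18 root marker names, 3 (EXPA7, EXPA18 and PYK10) have a named probe set, and these were above the filter level on all 12 arrays, while none of the 18 shoot marker names does, so the shoot share was not checked here.

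The values are the deposited MAS5 signals on a linear scale. A probe set was tested if its mean log2 signal lay above that of the dimmest 30% of probe sets, a signal of 47.4, which left 15922. Changes are differences of mean log2 signal from a limma fit to all 12 arrays, given with its standard error (SE) or 95% interval. A change was called at a Benjamini-Hochberg adjusted p under 0.05. The fit was run without pairing and again with the replicate number as a block, the paired fit, because arrays that share a number deviated together.

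Across the 4 groups, 0 of the 6 genes were called in any of the 6 comparisons, without pairing or in the paired fit. Of all tested probe sets, 0% to 0.446% were called without pairing and 0% to 3.71% in the paired fit, depending on the comparison. The nearest to a call were nad4 and nad9, whose signals under L-AOPP were below those of mock in 3 of 3 pairs each. The same was so for 15% of all tested probe sets. The 36 log2 differences lay between -0.51 and 0.40, and none of the 6 genes differed between groups by more than 1.42-fold, taken from mean log2 signals. All 36 adjusted p-values were 0.9997 or higher without pairing, and they lay between 0.134 and 0.999 in the paired fit. Of the 36 differences, 1 had an unadjusted limma p under 0.05 without pairing and 3 did in the paired fit. In the comparison of the first, L-AOPP against mock, 3.32% of all tested probe sets did without pairing. In the paired fit 13.4% of all did for L-AOPP against mock and 9.82% for IPyA against L-AOPP, the comparisons of those 3. In each fit, 35 of the 36 intervals stayed within 1 on the log2 scale, a 2-fold change either way, and the exception was the difference of nad1 between L-AOPP and mock. The plot of signals by array shows the values behind these numbers.

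**Figure D1:**
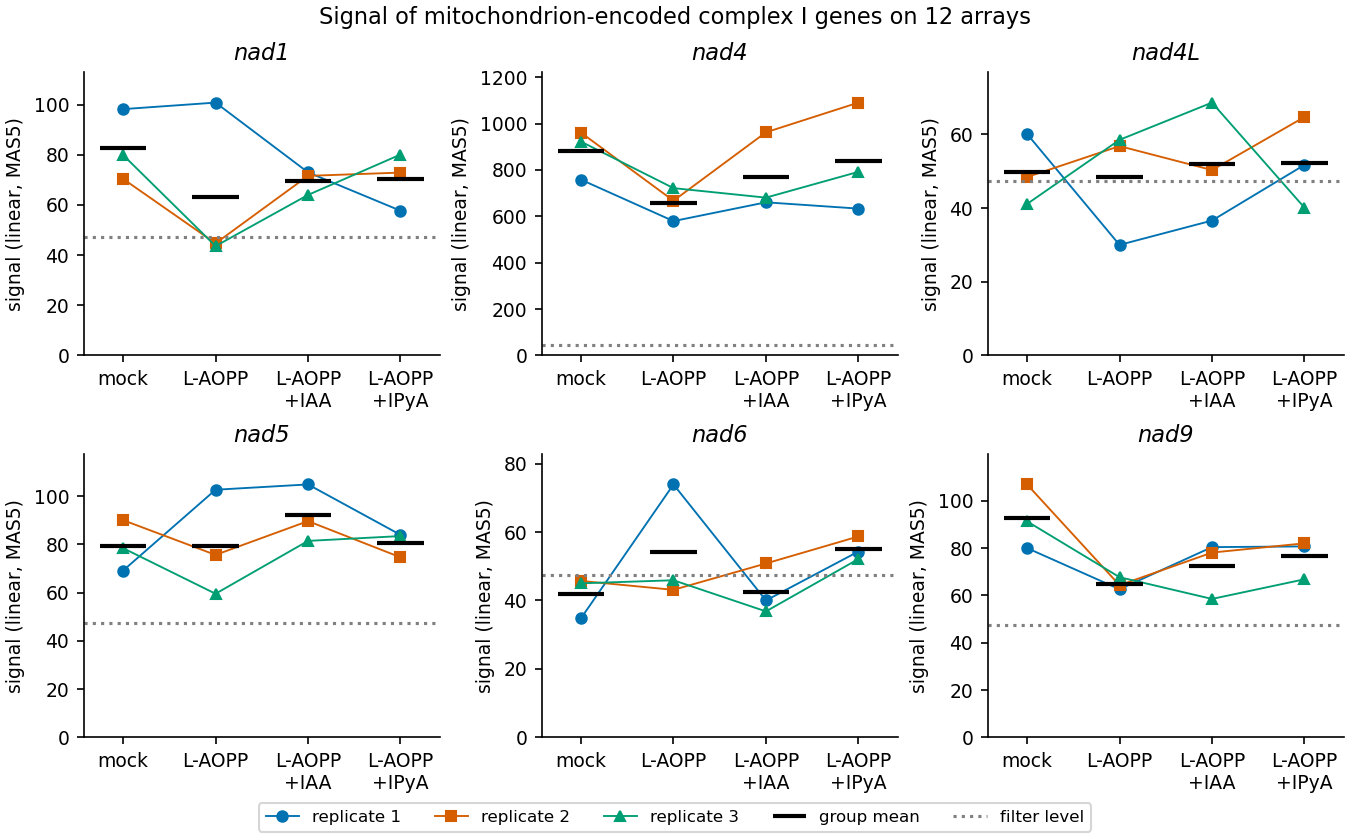
Signal of each of the 6 genes on each of the 12 arrays (linear MAS5 signal, y axis from 0), by group on the x axis. Symbols joined by a line share a replicate number, the black bar is the mean of 3 arrays, and the dotted line is the filter level of 47.4. The nad4 and nad9 signals of all 3 L-AOPP arrays lie below those of all 3 mock arrays, while the L-AOPP and mock signals of nad1, nad4L, nad5 and nad6 overlap.

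The membrane-arm gene nad4, whose product belongs to the antiporter-like subunits thought to take part in proton pumping, was measured by probe set 244929_at. Its signals in replicates 1, 2 and 3 were 758, 960.8 and 922.1 in mock and 579.4, 667.2 and 721.6 with L-AOPP. They were 660.4, 962.2 and 680.6 with L-AOPP and IAA, and 633.3, 1090.3 and 791.8 with L-AOPP and IPyA. The 3 L-AOPP arrays were all below the 3 mock arrays, and the arrays with IAA or IPyA overlapped both groups. The group means were 880.3 ± 108 (SD, n = 3) in mock, 656 ± 71.8 with L-AOPP, 768 ± 169 with IAA added and 838 ± 232 with IPyA added. Replicate 2 gave the highest nad4 signal in 3 of the 4 groups, and the replicate number took 48.3% of the variance of its log2 signal, against 32.7% for the group. Summed over all tested probe sets, these shares were 53.3% and 23.4%.

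With L-AOPP against mock, nad4 differed by -0.42 ± 0.20 (SE) on the log2 scale, 1.34-fold. The 95% interval was -0.87 to 0.02 without pairing and -0.68 to -0.17 in the paired fit, where limma's adjusted p was 0.134. The difference was negative in 3 of 3 pairs (-0.39, -0.53 and -0.35) and lay between -0.53 and -0.34 as each array or replicate number was left out. When IPyA was added to L-AOPP, nad4 was higher in 3 of 3 pairs, by 0.32 ± 0.20 (SE, without pairing) on the log2 scale. The 95% interval was -0.12 to 0.77 without pairing and 0.07 to 0.58 in the paired fit (limma, paired adjusted p = 0.363). The pair numbered 2 gave 0.71, the others 0.13 each, and the groups overlapped. Without the IPyA replicate 2 array the nad4 difference was 0.12, and without the IPyA replicate 1 array it was 0.51. Adding IAA to L-AOPP went with a nad4 difference of 0.21 (95% interval -0.23 to 0.66), and nad4 was higher in 2 of 3 pairs. The comparisons with L-AOPP share its 3 arrays, so these differences are not separate evidence of one pattern.

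The matrix-arm gene nad9 (probe set 244943_at) had signals of 80, 106.9 and 91.3 in mock and 62.6, 64.3 and 67.7 with L-AOPP. With IAA added they were 80.4, 78.1 and 58.5, and with IPyA added 80.7, 82 and 66.8. All 3 L-AOPP arrays were below all 3 mock arrays, and replicate 3 was the lowest array of both groups with an added auxin or precursor. The means were 92.7 ± 13.5 (SD, n = 3) in mock, 64.9 ± 2.60 with L-AOPP, 72.3 ± 12 with IAA added and 76.5 ± 8.43 with IPyA added. L-AOPP and mock differed by -0.51 ± 0.19 (SE) on the log2 scale, 1.42-fold, with a 95% interval of -0.92 to -0.09. That interval left out 0, but limma's adjusted p over all probe sets was 0.9997 without pairing and 0.269 in the paired fit, so the difference did not pass the test. The difference lay between -0.61 and -0.39 as each array or number was left out.

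Against L-AOPP alone, nad9 differed by 0.14 with IAA (95% interval -0.27 to 0.56) and by 0.23 with IPyA (-0.19 to 0.65), in both cases higher in 2 of 3 pairs. Against mock it differed by -0.36 with IAA (-0.78 to 0.06) and by -0.27 with IPyA (-0.69 to 0.14), and the groups overlapped. Of the 6 genes, nad9 had the smallest spread within groups, an SD of 0.19 on the log2 scale, where the median tested probe set had 0.22. The group took 59.6% of its variance, the largest share among the 6, where it took 23.4% summed over all tested probe sets.

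The nad1 product anchors the membrane arm next to the junction with the matrix arm. Its brightest probe set, 257321_at, gave 98.2, 70.4 and 79.9 in mock and 100.8, 44.7 and 43.6 with L-AOPP. It gave 73, 71.6 and 64 with IAA added and 57.7, 72.9 and 80.1 with IPyA added. L-AOPP replicate 1 was the highest nad1 array of all, L-AOPP replicates 2 and 3 were the lowest, and every group overlapped every other. The mean was 82.8 ± 14.1 (SD, n = 3) in mock and 63.0 ± 32.7 with L-AOPP, 69.5 ± 4.84 with IAA and 70.2 ± 11.4 with IPyA. L-AOPP and mock differed by -0.50 ± 0.30 (SE) on the log2 scale, with a 95% interval of -1.16 to 0.16 and pair values of 0.04, -0.66 and -0.87. Without L-AOPP replicate 1 the difference was -0.89 (limma, adjusted p = 1.0), and without L-AOPP replicate 3 it was -0.29.

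The probe sets of nad1 did not move together. The annotation pairs 7 probe sets with nad1 alone and 2 more, 265229_s_at and 266013_s_at, with nad1 and a gene each on chromosome 2, AT2G07701 and AT2G07702. Of the 7, only 2 passed the filter, 257321_at and 257324_at. With L-AOPP against mock, 3 of the 7 were below 0 and 4 above 0, from -0.50 to 0.74, and the mean over the 7 was 0.02. The other probe set that passed the filter differed by -0.28. The log2 signals of the other 6 had correlations with the one used of -0.54 to 0.35 over the 12 arrays. Of the 7, 5 had a mean log2 signal under the filter level, and among these 257322_at was above that level on 8 of 12 arrays. Which transcripts or nuclear copies each probe set reads was not tested. The plot of probe sets shows these values.

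**Figure D2:**
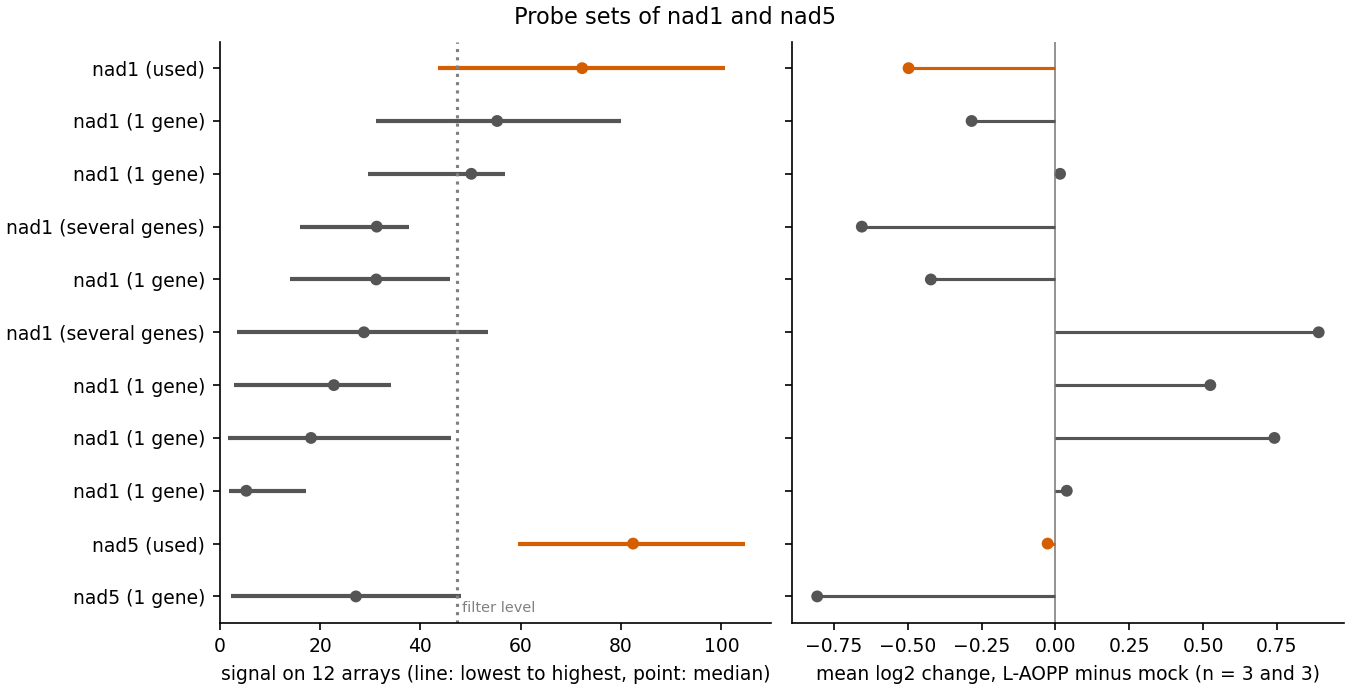
Left, the lowest, median and highest linear signal over 12 arrays (line and point) of each probe set paired with nad1 or nad5, with the filter level of 47.4 dotted. Right, the mean log2 change of L-AOPP minus mock (3 arrays each) for the same probe sets. The nad1 probe sets paired with 1 gene range from -0.50 to 0.74, on both sides of 0, and the second nad5 probe set, with a signal of 2.3 to 48.0, gives -0.81 where the one used gives -0.03.

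The nad5 product is another antiporter-like subunit, at the far part of the membrane arm. Its signals (probe set 257338_s_at) were 69.1, 90 and 78.4 in mock and 102.6, 75.6 and 59.5 with L-AOPP, with means of 79.2 ± 10.5 (SD, n = 3) and 79.2 ± 21.8. They were 104.8, 89.6 and 81.4 with IAA added, a mean of 91.9 ± 11.9, and 83.9, 74.6 and 83.4 with IPyA added, a mean of 80.6 ± 5.23. All groups overlapped, and the highest arrays were replicate 1 of the L-AOPP and L-AOPP with IAA groups. L-AOPP and mock differed by -0.03 on the log2 scale (95% interval -0.50 to 0.44), so a difference of that size either way is not shown to be absent. With IAA, nad5 was above L-AOPP alone in 3 of 3 pairs by 0.24 (-0.23 to 0.71), which did not pass the test (limma, paired adjusted p = 0.637).

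The small membrane subunit gene nad4L and the membrane subunit gene nad6 were close to the filter level. For nad4L (244902_at) the signals were 60.1, 48.4 and 41.1 in mock and 30, 56.8 and 58.5 with L-AOPP. They were 36.6, 50.3 and 68.6 with IAA added and 51.7, 64.7 and 40.1 with IPyA added. All 4 groups overlapped, and the group means lay between 48.4 ± 16 (SD, n = 3) with L-AOPP and 52.2 ± 12.3 with IPyA added. Its pair values for L-AOPP against mock ran from -1.0 to 0.51. The group took 2.39% of its variance, the smallest share of the 6 genes, against 23.4% summed over all tested probe sets.

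The nad6 signals (244953_s_at) were 34.8, 45.7 and 45 in mock and 73.9, 43.1 and 45.9 with L-AOPP. They were 40, 50.8 and 36.8 with IAA added and 54.3, 58.7 and 52.1 with IPyA added. The 3 arrays with IPyA lay above the 3 mock arrays and above the 3 arrays with IAA, and L-AOPP replicate 1 was the highest of all 12. The nad6 signal was above the filter level on 3 of 3 arrays with IPyA, on 1 of 3 with L-AOPP alone, on 1 of 3 with IAA and on 0 of 3 in mock, so it passed the filter through the arrays where it was high, and its higher values with IPyA are given as a description only. The means were 41.8 ± 6.10 (SD, n = 3) in mock, 54.3 ± 17.0 with L-AOPP, 42.5 ± 7.34 with IAA added and 55.03 ± 3.36 with IPyA added. Against mock, nad6 with IPyA differed by 0.40 ± 0.26 (SE) on the log2 scale (95% interval -0.15 to 0.96), higher in 3 of 3 pairs, and limma's paired adjusted p was 0.905. Against IAA the difference was 0.38 (-0.17 to 0.94; paired adjusted p = 0.753). With L-AOPP alone it was 0.34 above mock, or 0.10 without L-AOPP replicate 1.

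These values lie at the edge of what was tested. The mean nad6 signal, 47.44, was the first member value above the filter level of 47.38, and a further nad1 probe set at 47.11 was just under it. The nad6 signal was over that level on 5 of 12 arrays and the nad4L signal on 8, against 10 for nad1 and 12 each for nad4, nad5 and nad9. Of the 13 probe sets paired with 1 of the genes, 7 passed the filter and 6 did not. The probe sets used for nad5 and nad6 carry the suffix of sets designed to match several transcripts, although the annotation pairs each with 1 gene.

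By mean linear signal, the order of the 4 groups was the same for nad1, nad4 and nad9: mock highest, then L-AOPP with IPyA, then L-AOPP with IAA, then L-AOPP alone. For nad4L it was IPyA, IAA, mock and L-AOPP, for nad5 IAA, IPyA, L-AOPP and mock, and for nad6 IPyA, L-AOPP, IAA and mock. The nad5 means of L-AOPP and mock were 79.23 and 79.17, and by mean log2 signal their order was the other way round. No 2 neighbouring groups in any of these orders differed beyond their spread, since the ranges of their 3 arrays overlapped in every case.

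As a group, the 6 genes were read against all probe sets tested. With L-AOPP against mock, 0 of the 6 were called, where 0% of all probe sets were called without pairing and 0.578% in the paired fit. Their median difference was -0.25 with 5 of 6 below 0, against a median of 0.01 and 47.1% below 0 over all tested. Both nad4 and nad9 had groups that did not overlap, on the lower side, as 3.77% of all tested probe sets did, and 15% of all were lower in 3 of 3 pairs. At an unadjusted p under 0.05 there was 1 member without pairing (nad9) and 2 in the paired fit (nad4 and nad9), against 3.32% and 13.4% of all.

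With IAA added to L-AOPP, 0 of 6 were called (0.396% of all without pairing, 3.71% paired). The median difference was 0.18 with 5 of 6 above 0, nad6 being the exception at -0.32, and 46.4% of all probe sets were above 0. This median was 0.097 without the IAA replicate 2 array and 0.29 without the IAA replicate 3 array, and nad6 was at -0.078 without L-AOPP replicate 1. Only nad5 was higher in 3 of 3 pairs, as 17.4% of all were. With IPyA added, 0 of 6 were called (0% of all without pairing, 0.176% paired). The median was 0.19 with 6 of 6 above 0, where 49.8% of all were. The 6 include nad6 (0.06), which passed the filter through its arrays with IPyA, so nothing is read from this count. As arrays or numbers were left out, nad1, nad4L, nad5 and nad6 turned below 0 (lowest -0.050, -0.18, -0.15 and -0.13). The mean over all nad1 probe sets was -0.25. Without the IPyA replicate 2 array the median was 0.12. Only nad4 was higher in 3 of 3 pairs, as 15.6% of all were. At an unadjusted p under 0.05 lay 2.3% of all without pairing and none of the 6, and 9.82% of all in the paired fit with nad4 alone of the 6. Both comparisons subtract the L-AOPP arrays that the first comparison sets against mock, so opposite signs between them and the first are partly fixed by those arrays. The plot of the 36 differences shows their intervals.

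**Figure D3:**
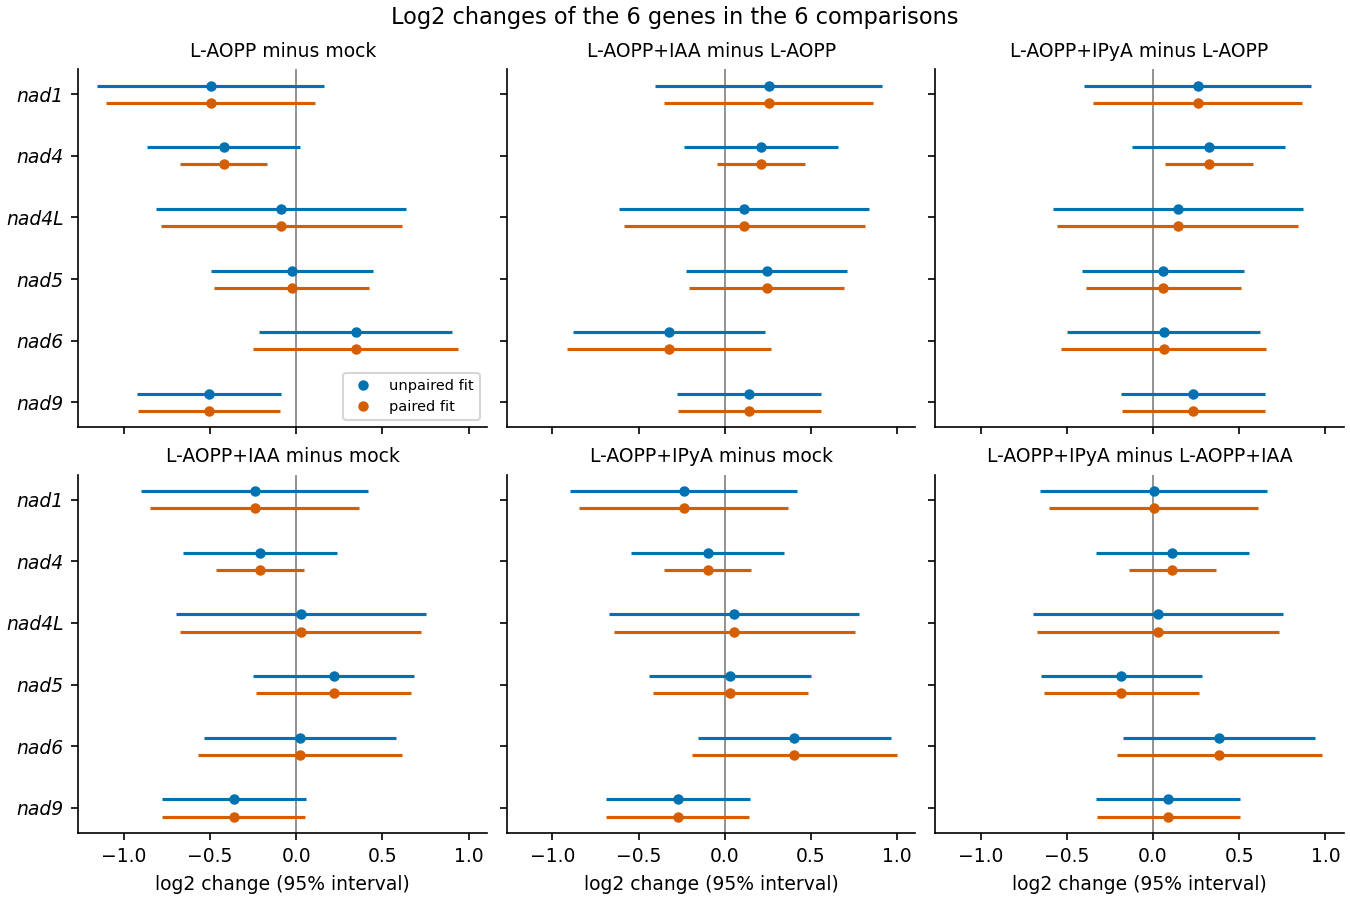
Log2 change of each of the 6 genes in each of the 6 comparisons, with 95% intervals from limma without pairing (blue) and with the replicate number as a block (orange). With L-AOPP against mock, the intervals of nad9 lie below 0 in both fits (-0.92 to -0.09 without pairing) and that of nad4 lies below 0 in the paired fit only (-0.68 to -0.17). With IPyA against L-AOPP the paired interval of nad4 lies above 0, and all others include 0.

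Compared with mock, 0 of the 6 genes were called with L-AOPP and IAA (0.446% of all without pairing, 1.7% paired), and the median difference was -0.10 with 3 of 6 below 0. With L-AOPP and IPyA against mock, 0 of 6 were called, as were 0% of all probe sets in both fits, although 0.942% had an unadjusted p under 0.05 without pairing and 5.54% did in the paired fit. The median was -0.03. The groups of nad6 that did not overlap were on the higher side, as those of 2.14% of all tested probe sets were, and 13.7% of all were higher in 3 of 3 pairs. Because nad6 passed the filter through its arrays with IPyA, nothing is read from these shares. Between the additions, 0 of 6 were called (0.377% of all without pairing, 1.94% paired), with a median of 0.06 for IPyA minus IAA. Here nad6 did not overlap, on the higher side, as was so for 3.13% of all, and the same limit holds. Both nad6 and nad9 were higher in 3 of 3 pairs, as 16.8% of all were. The doses of IAA and IPyA differ or are unsettled, so this sets 2 treatments side by side and not 2 compounds at 1 dose.

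The 6 genes varied together only in part. Over the 12 arrays, the 15 correlations between pairs of genes lay between -0.70 and 0.62 with a median of 0.11, and 8 were above 0. The highest was that of nad4 with nad9 (0.62, or 0.74 after each replicate number's mean was taken off), and the lowest that of nad4L with nad5 (-0.70, or -0.72). The correlation of nad1 with nad4 was 0.13, and 0.61 after the number means were taken off. These points share arrays, scaling and the 4 treatments, and nad4L and nad6 lay near the filter level.

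Other respiratory genes of the mitochondrial genome were read from lists of gene names. Of the other complex I genes, nad2 and nad7 have a probe set paired with 1 gene, and neither passed the filter. Of complexes III and IV, cox1 and cox2, subunits of cytochrome c oxidase, were tested. Of cytochrome c maturation and protein transport, ccb206, ccb382, ccb452 and orfX were. The ccb203 and matR probe sets were too dim to be tested. In the 6 tested genes the median differences were -0.27 with L-AOPP against mock, 0.26 with IAA against L-AOPP and 0.30 with IPyA against L-AOPP, with 5 of 6 below 0, then 4 and 5 of 6 above 0. None was called without pairing. In the paired fit ccb382, a cytochrome c maturation gene, fell by 0.73 with L-AOPP (limma, adjusted p = 0.032). It was 0.78 higher with IPyA than with L-AOPP alone (limma, adjusted p = 0.042), and cox1 was 0.48 higher with IAA than with L-AOPP alone (limma, adjusted p = 0.031). The paired fit called 0.578% of all tested probe sets with L-AOPP against mock, 0.176% with IPyA against L-AOPP and 3.71% with IAA against L-AOPP.

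The plastid genome encodes a related complex, the chloroplast NDH complex, which takes part in cyclic electron flow around photosystem I. Of its 11 gene names, 9 were tested, and the median differences were -0.26, 0.14 and 0.21 in the same comparisons. Without pairing, 0 of the 9 were called. The paired fit called ndhJ lower with L-AOPP (-0.44, limma, adjusted p = 0.047), where it called 0.578% of all tested probe sets. It called ndhD and ndhE higher with IAA (0.24 and 0.51, 3.71% of all called), and ndhD higher with IPyA (0.36, 0.176% of all called). The medians of the 6 complex I genes lay within 0.1 of those of the NDH genes in each of these comparisons, and no test of a difference between the lists was made. The plot of organelle genes shows all 3 sets.

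**Figure D4:**
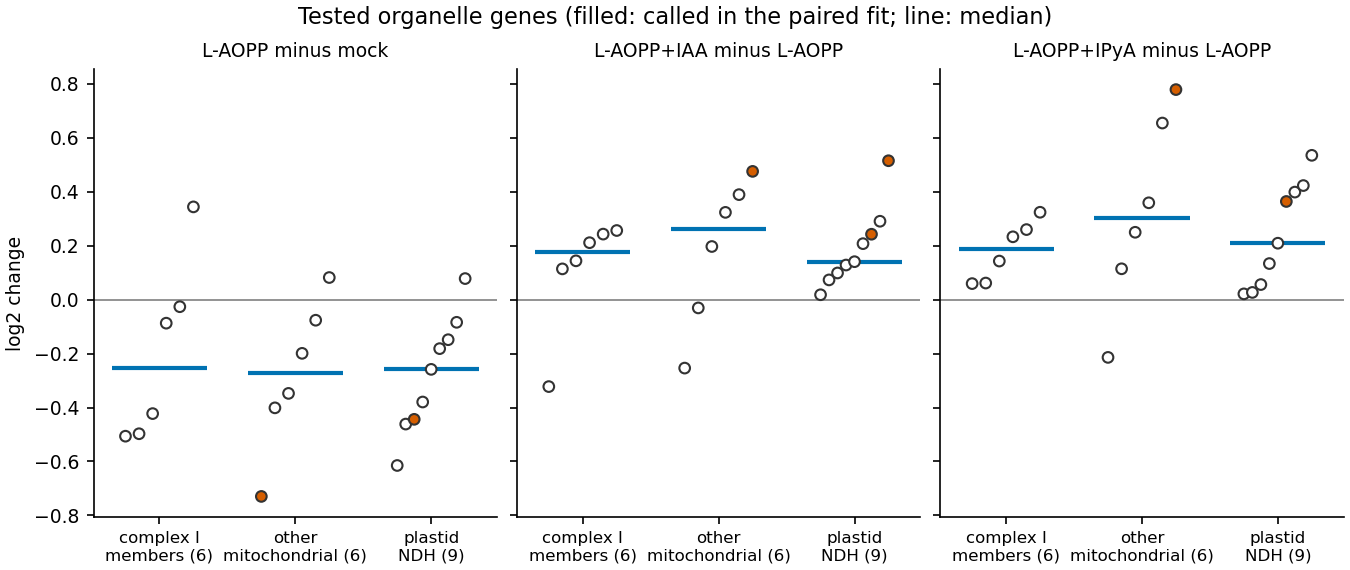
Log2 change of each tested gene (circle) in 3 comparisons for the 6 complex I genes, 6 other mitochondrion-encoded genes and 9 plastid NDH genes, with the median as a line. Filled circles were called in the paired fit: 0 among the complex I genes in each panel, ccb382, cox1 and ccb382 among the other mitochondrial genes, and 1, 2 and 1 among the NDH genes. Of all tested probe sets, 0.578%, 3.71% and 0.176% were called in this fit in the same panels.

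Over the 12 arrays, the summed signal of plastid transcripts varied with that of nad4. Of 67 tested plastid genes 63 were below 0 with L-AOPP, with a median of -0.38, where 47.1% of all tested probe sets were below 0. The summed plastid signal under L-AOPP was below that of mock in 3 of 3 pairs and was higher with IPyA than with L-AOPP alone in 3 of 3. Over the 12 arrays it ranged from 323857 to 442306, and its correlation with log2 signal was 0.84 for nad4, 0.59 for nad9, 0.40 for nad1 and between 0.11 and 0.22 for nad4L, nad5 and nad6. The means of the replicate numbers were not taken off here, so replicate number and treatment are mixed in these correlations. The GAPDH 3'/5' ratio, a sign of RNA integrity, under L-AOPP (1.25 ± 0.0998, SD, n = 3) was likewise below that of mock (1.32 ± 0.0848) in 3 of 3 pairs, and its correlation was 0.28 with nad4 and 0.43 with nad9. The actin and ubiquitin 3'/5' ratios were instead higher under L-AOPP in 2 of 3 pairs each. Over the 12 arrays the actin ratio ran from 7.77 to 14.5 and the ubiquitin ratio from 2.02 to 2.70. Both lay above the highest GAPDH ratio, 1.51, on every array, so the GAPDH values alone do not show that the RNA was intact. The correlations of these 2 ratios were 0.42 (actin) and -0.47 (ubiquitin) with nad4, and 0.29 and 0.13 with nad9. The part of any of these in the lower nad4 and nad9 signals was not tested.

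Nuclear genes of the same complex and of its bypasses did not pass the test. Of 30 names of nuclear complex I genes, FRO1, which encodes an accessory subunit of the matrix arm, and GLDH, the last enzyme of ascorbate synthesis that also serves complex I assembly, had a named probe set. They differed by 0.08 and -0.06 with L-AOPP against mock. Of the alternative NAD(P)H dehydrogenases, which pass electrons to quinones without pumping protons, NDB1, NDB2, NDB3 and NDC1 were tested and none was called in any of the 6 comparisons. Of the retrograde response genes listed, NDB2 and GRX480 were tested and not called. NDB2 came nearest, at 0.48 with IAA against L-AOPP (limma, paired adjusted p = 0.051). Of the splicing and transcription factors listed for the nad RNAs, OTP43, needed for nad1 splicing, was tested and differed by 0.16 with L-AOPP against mock, not called.

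By the rule of the highest correlation over 12 arrays with the mean of the 6 centred log2 signals, the probe sets most like the 6 genes, among 8701 named ones, were those of AT5G49280 (r = 0.91), AT3G55430 (0.90) and the plastid photosystem II genes psbB (0.90), psbC (0.89) and psbL (0.89). After each number's mean was taken off, they were those of the plastid genes atpH (0.96) and rpl32 (0.93), then AT5G17010 (0.91), AT2G07741 (0.91) and AT5G06120 (0.90). Among the other mitochondrial genes, ccb382 stood at 0.87 and 0.86 on the same measures and the rest between -0.33 and 0.66. The 12 arrays share scaling and treatments, and the values rank a search over many probe sets, so they describe likeness on these arrays only.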

How the data were processed

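Biotinylated cRNA made from total RNA was hybridised to 12 one-colour arrays, per the labels. The authors deposited 1 intensity per probe set on a linear scale, and the submitters' processing notes name MAS5, with no version given in the sources used here. The 2%-trimmed mean signal was 500.0 on each array, so the arrays were scaled before deposit. Array median signals ran from 169 to 185.

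Signals under 0.05 were raised to 0.05 and log2 transformed. Of 22810 probe sets, 64 controls and 6824 dim ones (mean log2 signal at or below the 30th percentile) were left out. limma 3.58.1 in R 4.3.3 (lmFit, eBayes with an intensity trend, two-sided) was fitted to all arrays, with Benjamini-Hochberg adjustment over 15922 probe sets within a comparison. Names came from the platform annotation: 13513 probe sets have 1 gene, 503 several and 8730 are unlisted. Members were found by symbol; the ribosomal protein names shared with plastid genes were left out. The named genes are the 6 members, called genes of the mitochondrial lists, and the 5 probe sets most like the members on each of 2 measures; other listed genes with values were named after their values were seen. The members and lists were chosen with earlier results of these data known. Alternatives were pairing, normalization, filter, floor, trend, groups fitted, probe set choice and each array left out. The fit was tested on simulated data. These held no replicate-number effect, and their planted changes were larger than any difference of the 6 genes. That test therefore does not show how the fits perform with pairing or with differences like those here.

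The titles number the replicates 1 to 3 without saying what a number marks. The 18 correlations of deviations from group means between arrays of 1 number were 0.501 to 0.685 and the 36 others -0.582 to 0.123, so the numbers were taken to pair the arrays.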

Additional observations from a re-analysis of the deposited data

How the results depend on the processing

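In every comparison 0 of 6 genes were called under each of the 19 alternatives run, and the replicate block changed no call of theirs. The block moved the number of all probe sets called from 0 to 92 for L-AOPP against mock, 63 to 590 for IAA against L-AOPP, 0 to 28 for IPyA against L-AOPP, 71 to 270 for IAA against mock and 60 to 309 for IPyA against IAA, and left it at 0 for IPyA against mock. With the block and no filter on dim probe sets, chosen after seeing the data, these numbers were 48, 477, 11, 229 and 260. Fitting only the 2 groups gave 38 for IAA against mock. Without the block and with 1 array left out, they ranged over 0 to 0, 23 to 37, 0 to 0, 30 to 69 and 25 to 48. With the block and 1 replicate number left out of all groups, they ranged over 0 to 329, 119 to 627, 0 to 75, 121 to 168 and 118 to 222.

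The lower nad4 and nad9 signals with L-AOPP kept their sign under all 19 alternatives. Several of these leave the difference itself unchanged, such as pairing, the filter and the trend, so the sign could not turn there. Leaving out arrays or numbers could not turn it either, because every L-AOPP array lay below every mock array for both genes. That check shows only how the size moved: nad4 lay between -0.53 and -0.34 and nad9 between -0.61 and -0.39. With the mean of all probe sets of a gene, paired or not, nad1 became 0.017 (L-AOPP against mock), -0.13 (IAA against L-AOPP), -0.25 (IPyA against L-AOPP) and -0.12 (IPyA against IAA), and nad5 became -0.17 (IAA against mock), -0.0024 (IPyA against mock) and 0.17 (IPyA against IAA). Quantile normalization turned nad4L to -0.042 and nad6 to -0.045 for IAA against mock. The cause of these turns was not tested. The median of the 6 stayed on its side of 0 in the first 4 comparisons but moved by over 1.5 times in some. As arrays or numbers were left out, it lay between 0.064 and 0.29 for IAA against L-AOPP, between 0.11 and 0.27 for IPyA against L-AOPP and between -0.19 and -0.028 for IAA against mock. It lay between -0.19 and 0.03 for IPyA against mock and between -0.06 and 0.16 for IPyA against IAA.

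Leaving out 1 array without the block, or 1 number with it, turned the sign of these log2 differences. For L-AOPP against mock, nad4L ranged from -0.39 to 0.37, nad5 from -0.32 to 0.16 and nad6 from -0.028 to 0.56. For IAA against L-AOPP, nad4L ranged from -0.20 to 0.34. For IPyA against L-AOPP, nad1 ranged from -0.050 to 0.79, nad4L from -0.18 to 0.49, nad5 from -0.15 to 0.26 and nad6 from -0.13 to 0.31. For IAA against mock, nad4L ranged from -0.33 to 0.40 and nad6 from -0.11 to 0.18. For IPyA against mock, nad1 ranged from -0.38 to 0.027, nad4 from -0.31 to 0.085, nad4L from -0.13 to 0.23 and nad5 from -0.091 to 0.18. For IPyA against IAA, nad1 ranged from -0.16 to 0.17, nad4 from -0.095 to 0.30, nad4L from -0.21 to 0.43 and nad9 from -0.057 to 0.18. With 3 arrays a group, 95% intervals reached 0.42 to 0.72 to either side of a difference without pairing, and signals near the filter level limit nad4L, nad6 and nad1.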
